A study of Mus musculus with 3 samples.

Results

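The genes described here encode the chondroitin sulfate proteoglycans, link proteins and tenascins of the perineuronal net, the lattice of extracellular matrix that surrounds some mature neurons. The 9 genes were Acan, Bcan, Ncan, Vcan, Hapln1, Hapln2, Hapln4, Tnr and Tnc, taken by name and represented by every probe set whose annotation carried that gene symbol alone. All 9 had a probe set of their own, 10 probe sets in all, out of 23521 probe sets (22180 genes) with a single symbol. Expression was measured by 1-colour array in 3 replicate cultures of wild-type (WT) cells from the medial ganglionic eminence (MGE), the embryonic ventral forebrain region where many cortical interneurons arise. The tissue was taken from CD-1 mouse embryos at E13 and grown with FGF2 at 40 ng/ml. All 3 cultures received the antimitotic nucleoside AraC at 1 µM for 24 h from day 5 and were kept for 2 days after it was washed out. They form 1 group with no comparison group, so levels could be set against background and cultures against each other, and no gene could be reported as changed by a condition. The labels do not say how many embryos or litters gave each culture.

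Aggrecan (Acan), brevican (Bcan), neurocan (Ncan) and versican (Vcan) are the lecticans, proteoglycans that bind the long sugar polymer hyaluronan at one end and tenascins at the other. Link proteins of the Hapln family clamp the lectican onto hyaluronan, and tenascin-R (Tnr) cross-links lecticans into a mesh. In the adult cortex these nets condense late, around parvalbumin interneurons above all, and aggrecan is their most typical lectican. Neurocan, versican and tenascin-C (Tnc) belong mostly to the looser matrix of the developing brain, where astrocytes, oligodendrocyte precursors and radial glia are among the cells that make lecticans and tenascins.

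Promoter sequence is shown for the members with the widest differences between cultures in each direction, Acan and Hapln1, which were highest in culture 2, and both tenascins, which were highest in culture 1. Each run is the 250 bases before an annotated transcript start, 5′ to 3′ on the strand of the gene, from RefSeq on GRCm38.p6. Capitals mark matches on either strand to the TATA box (TATAAA), the CCAAT box (CCAAT), the GC box (GGGCGG) or the AP-1 motif (TGANTCA).
Acan, chr7:79052976-79053225, plus strand: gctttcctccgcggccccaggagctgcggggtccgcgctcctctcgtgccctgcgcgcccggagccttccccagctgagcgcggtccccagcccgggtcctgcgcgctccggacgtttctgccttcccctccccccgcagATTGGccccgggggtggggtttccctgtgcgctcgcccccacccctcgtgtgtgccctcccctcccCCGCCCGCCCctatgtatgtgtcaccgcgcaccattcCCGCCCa
Hapln1, chr13:89540386-89540635, plus strand: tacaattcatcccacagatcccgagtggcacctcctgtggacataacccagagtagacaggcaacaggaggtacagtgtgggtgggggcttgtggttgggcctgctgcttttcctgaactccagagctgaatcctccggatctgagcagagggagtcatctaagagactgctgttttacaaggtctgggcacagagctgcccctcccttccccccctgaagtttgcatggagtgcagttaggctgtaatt
Tnr, chr1:159523519-159523768, plus strand: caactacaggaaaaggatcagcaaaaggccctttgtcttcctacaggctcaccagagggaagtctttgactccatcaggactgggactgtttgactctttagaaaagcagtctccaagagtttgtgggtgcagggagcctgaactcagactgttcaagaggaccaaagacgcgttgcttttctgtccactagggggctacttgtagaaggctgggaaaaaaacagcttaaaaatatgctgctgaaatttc
Tnc, chr4:64047016-64047265, minus strand: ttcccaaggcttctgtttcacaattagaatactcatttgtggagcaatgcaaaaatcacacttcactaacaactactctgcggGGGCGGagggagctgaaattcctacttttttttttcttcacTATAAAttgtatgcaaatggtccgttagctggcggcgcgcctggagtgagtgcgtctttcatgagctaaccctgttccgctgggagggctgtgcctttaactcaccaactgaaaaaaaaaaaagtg

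The Acan stretch held 3 GC box matches, of which a pair overlap, and 1 CCAAT match, and the Tnc stretch held 1 GC box and 1 TATA match. The Hapln1 and Tnr stretches held no match to these 4 motifs. Of 32851 RefSeq promoters cut to the same length, 32.7% held a GC box, 33.8% a CCAAT box, 12.4% a TATA box and 6.75% an AP-1 match. The Acan promoter was the richest in CpG among the 8 members in the promoter table, with 26 CpG and 74.4% G or C, and 90.4% of all promoters held fewer. Hapln1 and Tnr had 2 CpG each (54.4% and 46.8% G or C) and Tnc had 8 (44.8%), against a median of 6 over all promoters. Acan and Hapln1 differed in these features, and both were highest in culture 2. Any link between the features and the order of the cultures was not tested. Among the members not shown, Bcan had 16 CpG, Vcan 10, Ncan 6 and Hapln2 2. Hapln4 was the member not matched in that table.

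Of the 9 matrix genes, 8 gave signal above background, and for 6 of them signal also exceeded background by at least 1 log2 unit. The background line was set at 6.26 log2 units, below which lay the means of 95% of 1440 probe sets for sensory receptor genes of the nose and tongue (Olfr, Vmn1r, Vmn2r and Tas2r genes). A gene was called when limma's 1-sided test of the 3-culture mean against that line gave an adjusted p under 0.05. Among all 20751 genes tested, 63.4% passed that test and 47.6% passed it with the line raised by 1 log2 unit to 7.26. The median level was 10.33 log2 units over the 9 members and 7.34 over all genes tested. Levels of different genes were not ranked, since probe sets bind with different strength, and a gene's place against the line carries that limit too.

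**Figure D1:**
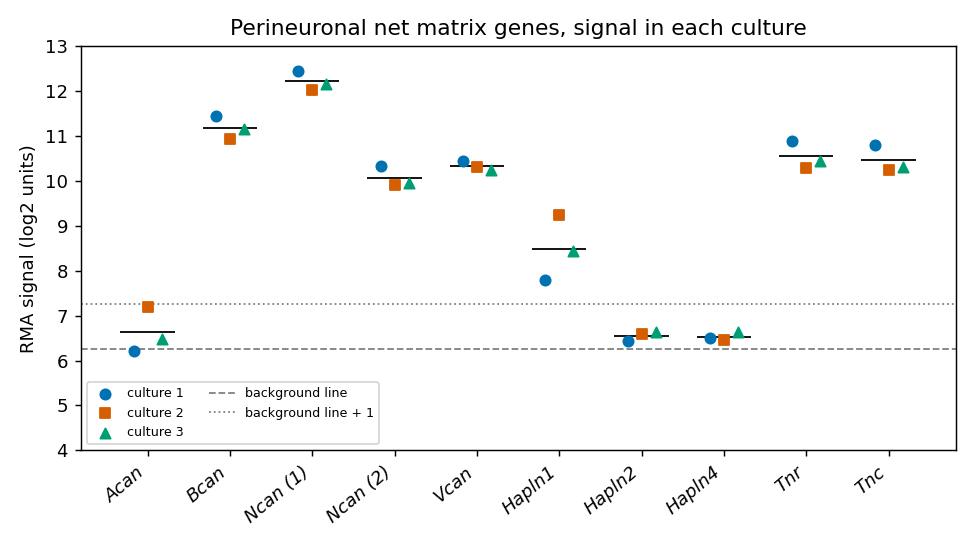
RMA signal in log2 units (vertical axis) of each probe set of the 9 genes in cultures 1, 2 and 3 (points), with the 3-culture mean (bar), the background line at 6.26 and the raised line at 7.26. Ncan has 2 probe sets; Bcan, Ncan, Vcan, Tnr and Tnc lie well above both lines, Hapln1 is spread from 7.80 to 9.23, and Acan, Hapln2 and Hapln4 have their means between the lines.

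The lecticans divided into 3 with strong signal and aggrecan near background. Bcan, a brain-restricted lectican, gave 11.45, 10.92 and 11.16 log2 units in cultures 1, 2 and 3, a mean of 11.17 ± 0.27 (SD, n = 3, adjusted p = 3.43e-06). Vcan, the large lectican of developing tissue, gave 10.44, 10.32 and 10.24, or 10.33 ± 0.10 (adjusted p = 1.47e-06). These cultures lay close together for Vcan, while for Bcan culture 1 was highest and culture 2 lowest. Ncan, the lectican of the juvenile brain, had 2 probe sets. The brighter gave 12.44, 12.03 and 12.16, or 12.21 ± 0.21 (adjusted p = 1.57e-06), and the other 10.34, 9.90 and 9.94, or 10.06 ± 0.24. The sets of Ncan differed by 2.15 log2 units in level, but in both of them culture 1 was highest and culture 2 lowest. Bcan, Ncan and Vcan also passed with the line raised by 1 log2 unit (adjusted p = 1.15e-05, 4.71e-06 and 5.00e-06).

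Acan was the member that did not pass. It gave 6.21 in culture 1, 7.20 in culture 2 and 6.48 in culture 3, a mean of 6.63 ± 0.51 (adjusted p = 0.12). Culture 1 lay under the line and culture 2 close to the raised line. With culture 2 left out the mean of Acan was at the line (adjusted p = 0.77), and without culture 1 or 3 the adjusted p was 0.0769 and 0.207. It passed when the 90th percentile of the receptor probe sets was taken as the line (adjusted p = 0.0126), so aggrecan was near the limit of what these arrays separate from background.

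Among link proteins, Hapln1 had clear signal and Hapln2 and Hapln4 lay just over the line. Hapln1, the link protein also found in cartilage, gave 7.80, 9.23 and 8.45 log2 units, or 8.49 ± 0.72 (adjusted p = 0.00129). All 3 cultures were above the raised line, and that call (adjusted p = 0.0145) was kept without culture 1 (0.0173) and lost without culture 2 (0.0751) or without culture 3 (0.0893). The mean stood 2.23 log2 units over the unraised line with all cultures, 1.77 without culture 2 and 2.26 without culture 3. The loss without culture 3 thus came with no lower signal, in a test on fewer arrays. Hapln2, a link protein known from nodes of Ranvier on myelinated axons, gave 6.43, 6.59 and 6.63, or 6.55 ± 0.10 (adjusted p = 0.00832). Hapln4, which holds brevican in nets, gave 6.51, 6.45 and 6.64, or 6.53 ± 0.10 (adjusted p = 0.00914). Neither Hapln2 nor Hapln4 passed against the raised line. Of the receptor probe sets that set background, 48 had a higher mean than Hapln2 and 49 a higher mean than Hapln4. Without culture 2 the Hapln2 call was lost (adjusted p = 0.10), and without culture 3 both were (0.0551 for Hapln2 and 0.0501 for Hapln4).

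In the RefSeq annotation each link protein gene lies beside a lectican gene with 0 annotated genes between them, Hapln1 beside Vcan, Hapln2 beside Bcan, Hapln4 beside Ncan and Hapln3 beside Acan. Vcan differed little between cultures, whereas Hapln1 differed more than nearly any gene. Bcan and Ncan stood far above the line and their neighbours Hapln2 and Hapln4 at it. Hapln3, a link protein of wider tissue distribution and no member of the set, gave 6.96, 6.79 and 6.84, or 6.86 ± 0.08 (adjusted p = 0.000433), and was not called against the raised line.

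Both tenascins were well above background. Tnr, made in the brain by oligodendrocyte lineage cells and some neurons, gave 10.89, 10.29 and 10.44 log2 units, or 10.54 ± 0.31 (adjusted p = 7.53e-06). Tnc, a matrix protein of radial glia and immature astrocytes, gave 10.80, 10.24 and 10.32, or 10.45 ± 0.30 (adjusted p = 7.27e-06). In each, culture 1 was highest and cultures 2 and 3 lay close together. Both passed against the raised line (adjusted p = 2.86e-05 and 2.83e-05).

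The matrix genes differed between cultures in opposite directions. Hapln1 was 1.44 log2 units higher in culture 2 than in culture 1, which is 2.71-fold on this scale, and culture 3 lay between them. Acan had the same order and was 0.99 higher in culture 2 as deposited, but its culture 1 value lay under the background line, so no fold is given. Tnr, Tnc, Bcan and Ncan went the other way, with culture 2 below culture 1 by 0.60, 0.55, 0.53 and 0.41 log2 units, or 1.51, 1.47, 1.45 and 1.33-fold. The order of the cultures in these 6 genes was the same after quantile normalization and after median centring of the arrays for the highest and the lowest culture. Vcan, Hapln2 and Hapln4 spanned 0.19, 0.20 and 0.19 log2 units. The lowest culture for Hapln4 was culture 2 as deposited but culture 1 after either rescaling. With a single array per culture, a difference between cultures has no error of its own and was not tested.

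A range over 0.5 log2 units was seen in 5 of the 9 members (Acan, Bcan, Hapln1, Tnr and Tnc) and in 13.8% of all genes tested. Bcan at 0.53 and Ncan at 0.41 were the members nearest to that limit on each side. After median centring Bcan and Tnc were just under it and 3 members above, and without culture 1 or culture 2 the count was 2 and 1. The median SD was 0.27 log2 units over the members and 0.13 over all genes tested. A wider range than that of Hapln1 was seen in 41 of the 20751 genes.

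**Figure D2:**
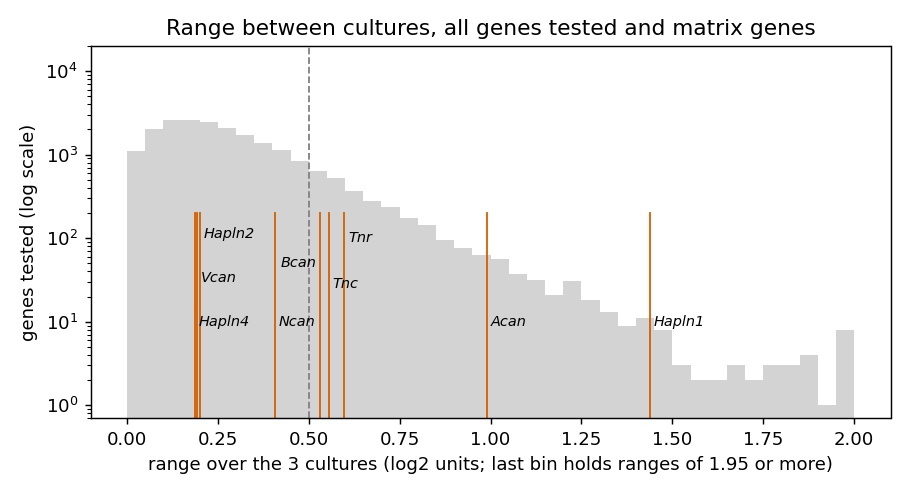
Number of genes tested (vertical axis, log scale) by range between the lowest and highest culture in log2 units (horizontal axis), with orange lines at the 9 matrix genes and a dashed line at 0.5. Hapln1 at 1.44 and Acan at 0.99, whose lowest value is under the background line, lie well to the right of the dashed line, while Vcan, Hapln2 and Hapln4 lie near 0.2.

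Cell type markers differed between the cultures as well. The arrays read whole cultures labelled as purified interneurons, and all 10 neuronal and MGE interneuron markers were above background, but so were 9 of 10 oligodendrocyte precursor, 6 of 9 mature oligodendrocyte, 10 of 12 astrocyte and 9 of 9 radial glia and progenitor markers. The share among all genes tested was 63.4%, and that of the mature oligodendrocyte markers was near it. Most markers on the precursor, mature oligodendrocyte, astrocyte and radial glia lists were highest in culture 1, as were Bcan, Ncan, Vcan, Tnr and Tnc. That held for 10 of 10 precursor markers, 8 of 9 mature oligodendrocyte markers, 11 of 12 astrocyte markers and 9 of 9 radial glia markers, against 33.2% of all genes tested. For example Gfap, the intermediate filament of astrocytes, gave 8.51, 6.64 and 8.08, and Aqp4, their water channel, 8.74, 7.53 and 8.34. Among precursor markers Pdgfra, a growth factor receptor, gave 11.51, 11.42 and 11.42, and Olig1, a lineage transcription factor, 11.84, 11.66 and 11.73. Mbp, a protein of compact myelin, gave 8.68, 7.91 and 7.97. After median centring of the arrays, culture 1 was above culture 2 in 9 of 10 precursor markers. Cspg4, a proteoglycan of precursors that was not on the marker list, was highest in culture 2. Of the microglial markers, 3 of 8 were highest in culture 1. Of the neuronal markers 7 of 10 were highest in culture 2, the culture in which Acan and Hapln1 were highest, against 44.3% of all genes. Snap25, a synaptic release protein, gave 12.67, 12.97 and 13.05, so its order was not that of Acan and Hapln1.

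The median of culture 1 minus culture 2 was 0.60 log2 units over the astrocyte markers, 0.69 over mature oligodendrocyte markers, 0.39 over radial glia markers, 0.19 over precursor markers and -0.30 over neuronal markers, against -0.02 over all genes tested. The log2 of the summed signal in cultures 1, 2 and 3 was 13.7, 13.1 and 13.4 for astrocyte markers and 13.7, 13.5 and 13.5 for precursor markers. It was 15.0, 15.3 and 15.3 for neuronal markers. Gjb6 and S100b of the astrocyte list, Matn4 of the precursor list and Opalin, Ermn and Aspa of the mature list were not above background. They were nevertheless kept in the counts by culture, the medians and the sums, where their order is less sure. What part the makeup of the cultures had in the differences between matrix genes was not tested, and in whole cultures fewer cells of a type and less RNA per cell cannot be told apart. Of the microglial, fibroblast and endothelial markers, 5 of 8, 6 of 9 and 6 of 7 were above background, beside 63.4% of all genes tested. Against the raised line 0 of 8, 1 of 9 and 0 of 7 were called, beside 47.6% of all genes. The 1 was Acta2, smooth muscle actin, at 9.39 ± 0.88.

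**Figure D3:**
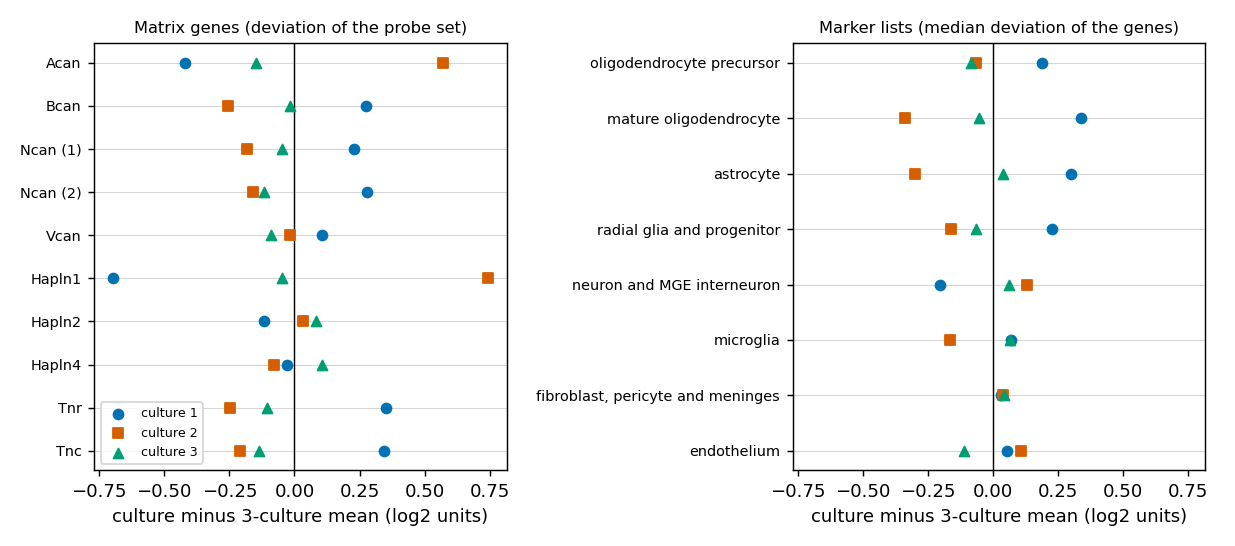
Difference of each culture from the 3-culture mean in log2 units (horizontal axis) for each matrix gene probe set (left) and, as the median over the genes of a list, for 8 cell type marker lists (right). Culture 1 is to the right for Bcan, Ncan, Tnr, Tnc and the glial lists and to the left for Acan, Hapln1 and the neuronal list.

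Genes listed for the net-bearing parvalbumin class were above background in 10 of 11 measured cases, 6 of them against the raised line. Among all genes tested 63.4% and 47.6% were called, so the count against the raised line was near that of all genes. The gene not above background was Pvalb itself. Signal from whole cultures does not show which cells expressed the other genes, so the count does not identify cells of that class. Pvalb, the calcium buffer that names the class, gave 6.35, 6.19 and 6.17 log2 units, or 6.24 ± 0.10 (adjusted p = 0.946). The potassium channels of fast spiking, Kcnc1 (8.62 ± 0.19) and Kcnc2 (8.72 ± 0.15), were above the line, as was Syt2, a release sensor of fast-spiking terminals (7.10 ± 0.11). In 9 of the 11 genes culture 2 was above culture 1, Kcns3 had the same value in both and Pvalb was lower in culture 2, while culture 2 was above culture 1 in 53.6% of all genes tested. The median of culture 1 minus culture 2 was -0.23 over the list.

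The enzymes that build chondroitin sulfate on lecticans were above background in 19 of 20 measured genes, 15 of them against the raised line. Over all genes tested these shares were 63.4% and 47.6%. Xylt1 (11.49 ± 0.11) and Xylt2 (8.67 ± 0.31), which attach the initial sugar, Fam20b (9.71 ± 0.18), the kinase that phosphorylates it, and B4galt7 (7.96 ± 0.36) and B3galt6 (8.64 ± 0.22), which extend the linker, were all called. Chst3, a sulfotransferase that makes the 6-sulfated form typical of young matrix, was the exception, with 6.70, 6.13 and 6.17 log2 units (adjusted p = 0.476). The median level of the list was 8.43. Chpf2 and Chst15 had no probe set of their own.

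Hyaluronan genes were above background in 10 of 12 measured cases, beside 63.4% of all genes tested. Against the raised line 3 of 12 were called, a smaller share than the 47.6% of all genes. They were the hyaluronan receptor Cd44 (7.52 ± 0.10) and the hyaluronidases Hyal2 (9.02 ± 0.11) and Cemip2 (8.21 ± 0.22). Of the synthases, Has1 (5.32 ± 0.07, adjusted p = 1) was not called, Has2 gave 7.59, 7.16 and 7.30 and Has3 gave 7.28, 8.07 and 7.72 (adjusted p = 0.000337 and 0.000804). Has2 was thus highest in culture 1 and Has3 in culture 2. Hmmr, a hyaluronan-binding protein of dividing cells, stood at 7.30 ± 0.05. The median level was 7.24, and Lyve1, the hyaluronan receptor of lymphatic vessels, was the other gene not called.

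Proteases that cut lecticans, with their inhibitors, were above background in 11 of 14 cases, 7 of them against the raised line, with a median level of 7.70. The shares over all genes tested were 63.4% and 47.6%, so the count against the raised line was near that of all genes. Adamts1 gave 7.90, 8.57 and 8.18, Adamts4 had a mean of 7.06 ± 0.10, and Adamts5 gave 7.07, 7.74 and 7.21, all above the line. Adamts9 stood at 8.71 ± 0.17, and Adamts8 (6.70 ± 0.54, adjusted p = 0.0949), Mmp9 (6.34 ± 0.12) and Timp1 (6.48 ± 0.27) were not called. Named after its values were seen, Adamts15, another lectican-cleaving protease, had the widest range of the list, 1.82 log2 units. It gave 6.22, 8.04 and 7.54 in cultures 1, 2 and 3 (adjusted p = 0.0451), and its culture 1 value lay under the background line. Timp4, an inhibitor also named after its values were seen, went the other way with 10.63, 9.71 and 10.01. A range over 0.5 was seen in 8 of the 14 genes, against 13.8% of all genes tested.

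Receptors and ligands of the matrix were above background in 21 of 21 cases, 16 against the raised line, with a median level of 9.79. Over all genes tested the shares called were 63.4% and 47.6%. Ptprz1, a receptor phosphatase whose secreted form phosphacan binds tenascin-R, gave 12.65, 12.23 and 12.44. The receptor phosphatases Ptprs (11.33 ± 0.11) and Ptprf (10.15 ± 0.13) were also called. So were Rtn4r (7.34 ± 0.25) and Rtn4rl1 (8.70 ± 0.52), of the Nogo receptor family. Ptprz1 was highest in culture 1 and lowest in culture 2, as Tnr was, whereas Rtn4rl1 gave 8.16, 9.20 and 8.75.

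Other neural proteoglycans and tenascins were above background in 9 of 11 cases, 8 against the raised line, with a median level of 9.74. All genes tested were called in 63.4% and 47.6% of cases. Cspg4, the NG2 proteoglycan of precursors and pericytes, stood at 8.09 ± 0.09 and Cspg5, neuroglycan C, at 11.00 ± 0.04. The testicans Spock1 (10.36 ± 0.31), Spock2 (10.36 ± 0.30) and Spock3 (10.41 ± 0.48) were each lowest in culture 1, Spock3 with 9.85, 10.71 and 10.65. In this list 9 of 11 genes were highest in culture 2, against 44.3% of all genes tested. Dcn, decorin, a fibroblast proteoglycan, and Tnxb, the tenascin of connective tissue, were not called, with 6.02 ± 0.22 and 6.23 ± 0.20.

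**Figure D4:**
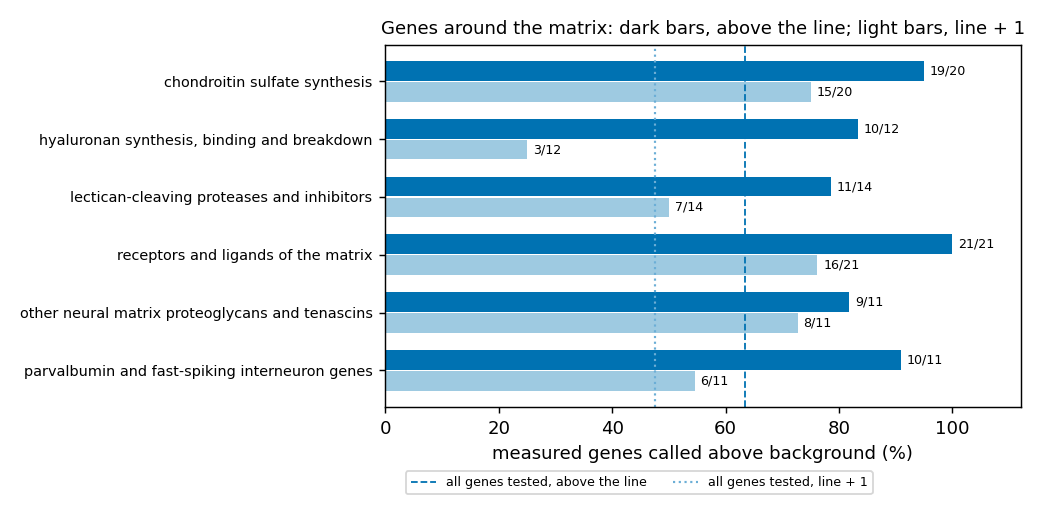
Percentage of measured genes called above the background line (dark bars) and above the line raised by 1 log2 unit (light bars) in 6 gene lists around the matrix, with the counts at the bar ends and the shares of all genes tested as vertical lines (63.4% and 47.6%). All 6 dark bars exceed the share of all genes, and the light bar of the hyaluronan list, 3 of 12, is below it.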

How the data were processed

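The authors deposited log2 signals for each probe set in each culture. The submitters' processing notes name oligo and RMA, a method of background correction, joint normalization and probe summary. Tool versions and settings: not given in the sources used here. The deposited log2 values ran from 2.07 to 13.9, with array medians of 6.57, 6.52 and 6.56 in cultures 1, 2 and 3. Arrays give no read depth, and their number limits the precision.

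Probe sets were named through the platform annotation; 1814 probe sets with several symbols and 16010 with none were not used. The 22081 named probe sets outside the receptor families entered 1 limma intercept fit (R 4.3.3, limma 3.58.1), 1-sided against the 95th percentile of the receptor families, with Benjamini-Hochberg adjustment over all of them at 0.05. Any called probe set made its gene called, and the brightest set gives the printed value. The p values concern the height of the 3-culture mean over a line taken as fixed. Their error comes from the spread between these 3 cultures, moderated by that of all probe sets tested.

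Members and gene lists were chosen with earlier results of these data known. Named were all members, the leading 5 genes of each pathway list and leading 3 of each marker list (of these, those needed as examples), and genes that complete a count of 5 or fewer, unless the text says otherwise. The range limit of 0.5 log2 units was set after the values were seen. Alternatives were other lines, a raised line, other background families, every culture above the line, an intensity trend, rescaled arrays, no dim probe sets, averaged probe sets and each culture left out. Leaving out a culture also makes the test weaker, since fewer arrays remain, so a call can be lost without a lower signal. The hyaluronan list names 1 gene under both its symbols, Cemip2 and Tmem2.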

Additional observations from a re-analysis of the deposited data

How the results depend on the processing

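The count of members above background was 6 with the line at the 99th percentile, with the alternative receptor-free background families (keratin-associated, defensin and similar genes) or with 1 log2 unit of margin, 9 at the 90th percentile, and 6 to 8 with a culture left out. The shares of all genes tested were 49.9%, 48%, 47.6% and 72.5% in those 4 settings and 60.9 to 62.5% with a culture left out. With a range over 1 log2 unit, an alternative added after the data were seen, 1 member (Hapln1) was counted as spread between cultures, and after median centring 3 were; with a culture left out the count was 1 to 5. Hapln2 and Hapln4 lay below the line in 3 settings. In the order 99th percentile, alternative families, margin, Hapln2 lay at -0.55, -0.70 and -0.71 relative to the line and Hapln4 at -0.56, -0.72 and -0.73. The cause was the line itself, which those settings raise to 7.10, 7.26 and 7.26. In the same settings the hyaluronan list counted 5, 3 and 3 of 12 and the protease list 7, 7 and 7 of 14, the latter near the shares of all genes above, and the parvalbumin class list counted 6 with the alternative families and 6 with a margin of 1. The other counts stayed within 1.5 times their main value in the alternatives run. The count of members over the line raised by 1 was 5 with the 99th percentile line, the alternative families, without culture 2 and without culture 3, Hapln1 being the member lost. No paired analysis was possible because the series holds 1 group. With 3 arrays, genes near the line such as Acan, Hapln2 and Hapln4 cannot be placed firmly on either side of it.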
